A study of Homo sapiens with 21 samples.

Results

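Eph receptors and ephrins form the contact-dependent receptor-ligand system examined here in HMLE cells, an immortalised human mammary epithelial cell line, during treatment with TGFβ. The set held 10 genes given by symbol, of 23201 genes in the table: the receptors EPHA1, EPHA2, EPHA4, EPHB2, EPHB3 and EPHB4, and the ligands EFNA1, EFNA5, EFNB1 and EFNB2. RNA sequencing was performed on untreated cells (d0) and on cells after 1, 4, 7, 10, 15 and 20 days of TGFβ (d1 to d20), with 3 libraries at each of the 7 timepoints and 21 in all. The time course was made to follow transcription through the epithelial-to-mesenchymal transition (EMT), and the untreated cells were the only controls, without an untreated culture carried to the later days. One cell line was used, and the labels name no clone, genotype change or second agent.

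Eph receptors are receptor tyrosine kinases that are activated when they meet ephrins on a neighbouring cell. EphA receptors mostly bind ephrin-A ligands, which are held to the membrane by a lipid anchor, and EphB receptors mostly bind ephrin-B ligands, which cross the membrane and signal back into the cell that carries them. In epithelia the system sets boundaries between cell populations and regulates adhesion and motility, and EPHA2 and EPHB4 are well studied in the mammary gland and in breast cancer.

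The libraries held 18847917 to 22667754 reads, and values are normalised read counts, that is, the reads of a library scaled by its size factor. Libraries of one timepoint differed by 0.21 to 0.24 (root mean square of log2 differences over genes). The exception was the third d7 library, which differed from the other d7 libraries by 0.47 and 0.46. Where the text prints the main log2 fold change of a set member at d7 against d0, the value without that library is also given. All 5 basal mammary markers (KRT5, KRT14, TP63, EGFR and ITGA6) and all 4 epithelial markers (EPCAM, CDH1, KRT18 and KRT8) were expressed, and the sum of 5 mesenchymal markers (VIM, FN1, CDH2, ZEB1 and ZEB2) ran from 9457 to 604484 between timepoints. The highest mesenchymal sum was mostly FN1, at 4243 at d0 and 539309 at d20. VIM was at 5181 and 63815, CDH2 at 11 and 782, ZEB1 at 5.71 and 433, and ZEB2 at 15.8 and 144.5. Of the markers of other cell types, 1 of 4 leukocyte, 2 of 4 endothelial and 0 of 3 erythroid genes reached a mean of 10 at any timepoint, with summed levels by timepoint of 10.6 to 52.4, 23.2 to 279.5 and 2.37 to 6.15, and PTPRC, CD3E and CDH5 had means of at most 0.677. The highest endothelial sum was mostly KDR, at 263.1 at d15, and CD14 had means of 7.17 to 46.4.

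Of the 10 genes, 9 passed the filter of a mean normalised read count of at least 10 and were tested, together with 13343 genes in all. EPHA4 did not pass: it had 0 to 11 reads per library, was at 0 in 2 libraries and at 3 reads or fewer in 7, and its mean over the 21 libraries was 5. Its timepoint means ran from 2.29 ± 0.546 (SD, n = 3) at d10 to 7.77 ± 1.94 at d15, and every pair of neighbours in the order of its 7 levels overlapped. Days further apart in that order need not overlap: its libraries were at 1.99, 2.92 and 1.96 at d10 and 7.14, 9.95 and 6.22 at d15. At so few reads EPHA4 was not tested, so no change in it is called or excluded.

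**Figure D1:**
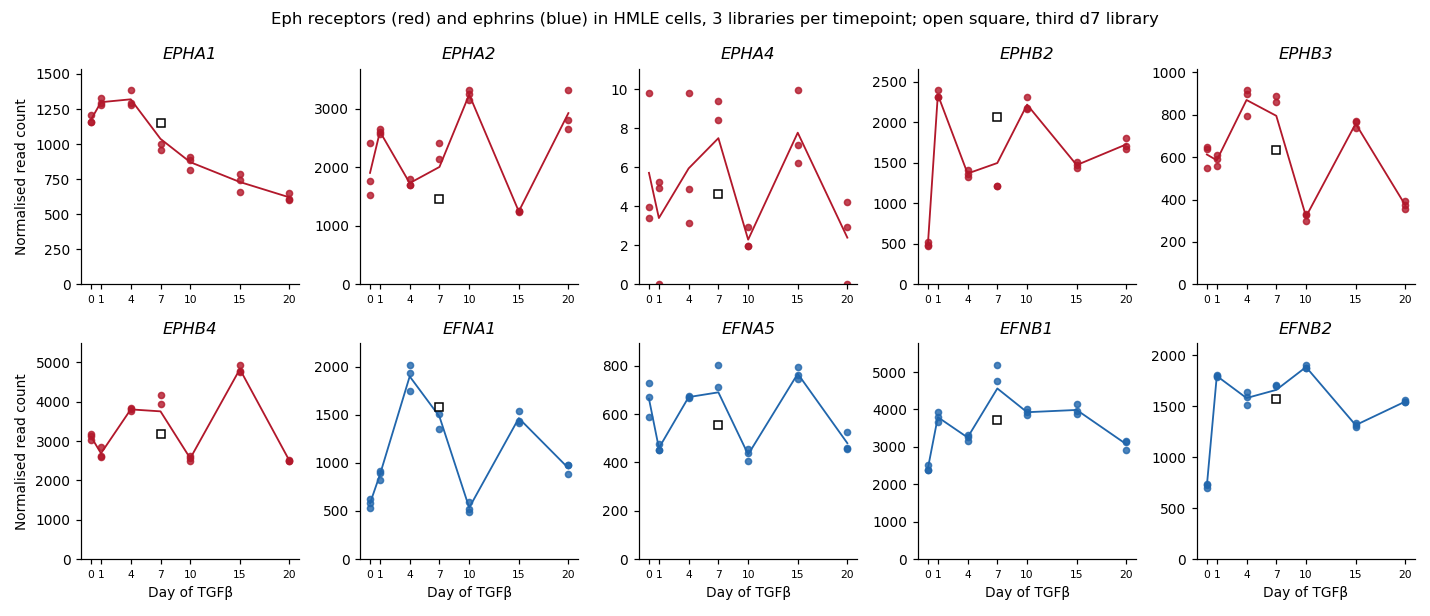
Normalised read count of each of the 10 genes (vertical axes, linear and starting at 0, with a scale of its own in each panel) against the day of TGFβ, with 1 point per library and a line through the timepoint means; the open square is the third d7 library. EPHB2 and EFNB2 lay above all 3 untreated libraries at every treated timepoint, EPHA1 declined after d4, and EPHA2 and EPHB4 moved in opposite directions from d7 to d20.

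Compared per kilobase of the longest coding transcript, EFNB1 and EPHB4 had the highest levels in untreated cells, at 732.9 ± 24.6 and 718.3 ± 19.2 normalised reads per kb (SD, n = 3). EPHA2 followed at 480.1 ± 113.7, EPHA1 at 349.5 ± 7.91 and EFNA1 at 300.4 ± 22.4. EPHB3 (144.6 ± 12.7), EFNB2 (144.0 ± 4.71) and EFNA5 (124.4 ± 13.4) lay close together, and the libraries of EPHB3 overlapped those of both others. EPHB2 was low, at 45.8 ± 2.11 per kb, and EPHA4 lowest at 0.90 ± 0.558. The longest coding transcript of EPHB2 has 10816 bases, beside 1926 to 6346 for the other members. Which transcripts were expressed was not examined, so the order per kb depends on these lengths. At d20 EPHB2 stood at 159.7 ± 6.47 per kb and EFNB2 at 309.4 ± 1.87, which placed both above EPHB3 (88.3 ± 4.38), EFNA5 (89.9 ± 7.49) and, for EFNB2, above EPHA1 (184.4 ± 7.23).

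**Figure D2:**
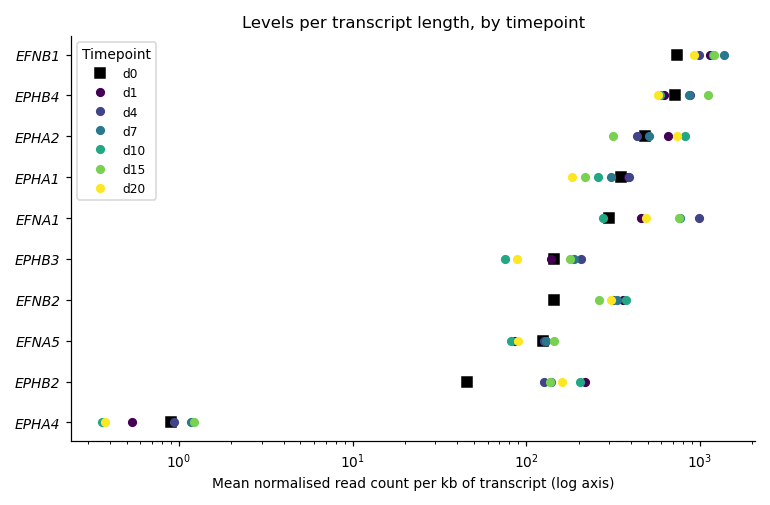
Mean normalised read count per kb of the longest coding transcript for each gene at each timepoint, on a log axis, with genes ordered by their untreated level (black squares) and treated timepoints as coloured circles. EPHB2 moved from 45.8 per kb at d0 to 126.4 or more at every treated timepoint, and EPHA4 stayed at or below 1.22.

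Against untreated cells, 5 of the 9 tested genes were higher at d1 (55.6%, against 31.3% of all genes tested) and 2 were lower (28.5% of all genes). At d4 the count was 7 higher (36.9% of all genes) and 0 lower (35.3%), at d7 6 higher (34.6%) and 1 lower (32.6%), and at d10 4 higher (37%) and 4 lower (30.7%). At d15 it was 7 higher (39.2%) and 2 lower (37.3%), and at d20 5 higher (32.5%) and 4 lower (30.2%). With every library rescaled to the same total the numbers higher were 4, 5, 4, 4, 5 and 4 and the numbers lower 3, 1, 1, 5, 2 and 4 on the 6 treated days in order. At d7, 4 were higher with only d0 and d7 in the fit and 8 without the third d7 library. The share of all genes called was not taken under these other settings, so their counts cannot be read against the shares above. These calls are limma adjusted p-values under 0.05 with no minimum fold, and all 6 comparisons use the same 3 untreated libraries. The median log2 fold change of the 9 genes was 0.48, 0.42, 0.36, -0.12, 0.63 and 0.34 on the 6 treated days in order, beside a median over all genes of 0.03 or less. In bulk RNA, fewer cells that express a gene and less RNA per cell cannot be told apart.

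**Figure D3:**
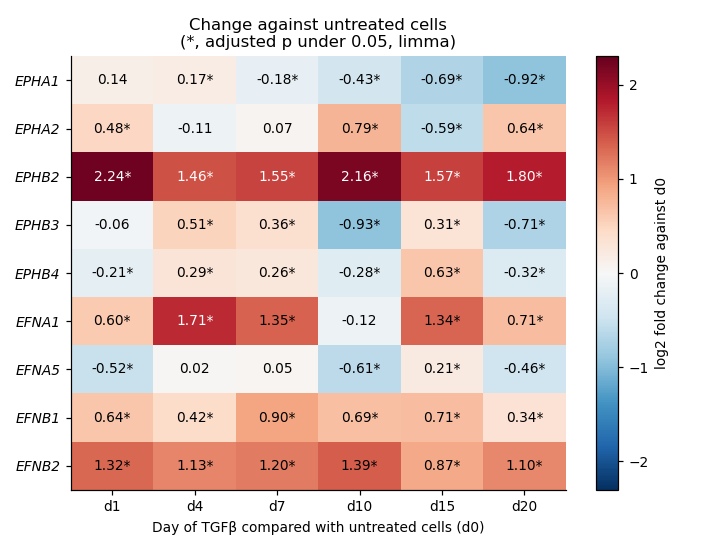
Log2 fold change of the 9 tested genes (rows) at each treated timepoint against untreated cells (columns), in red for higher and blue for lower, with the value printed and an asterisk where the limma adjusted p was under 0.05. EPHB2, EFNB1 and EFNB2 were higher in all 6 columns, although the call of EFNB1 at d20 was lost under 2 other scalings, and EPHA1 went from 0.17 at d4 to -0.92 at d20.

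Among the EphB receptors, which bind ephrin-B ligands, EPHB2 rose most. Its normalised read count was 521, 476 and 491 in the 3 untreated libraries and 2396, 2313 and 2312 at d1. At d4 it was 1410, 1366 and 1326, and at d10 it was 2318, 2162 and 2172. Every treated library was above every untreated one, and the level was 4.72-fold that of d0 at d1 (log2 fold change 2.24 ± 0.12 SE, limma adjusted p = 6.87e-13) and 3.48-fold at d20 (1.80 ± 0.12, adjusted p = 2.13e-11). EPHB2 did not hold its first level: it fell from d1 to d4 (-0.78 ± 0.12, adjusted p = 9.15e-06), rose from d7 to d10 (0.61 ± 0.12, adjusted p = 0.000109) and fell from d10 to d15 (-0.59 ± 0.12, adjusted p = 0.000126). Without the third d7 library the step from d7 to d10 was 0.87 (adjusted p = 3.57e-20). In the order of its levels d1 and d10 overlapped at the top, d20 overlapped d7, and d7 overlapped d15. The third d7 library had 2062 for EPHB2, beside a mean of 1215 in the other 2, and without it the d7 log2 fold change was 1.29 (adjusted p = 5.9e-26) in place of 1.55.

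EPHB4, a receptor for EFNB2 known from the separation of arteries and veins, moved less and in both directions. It had 3021, 3185 and 3123 normalised reads in untreated cells, 4936, 4779 and 4762 at d15 and 2512, 2481 and 2503 at d20. The d15 libraries were all above and the d20 libraries all below the untreated ones, with log2 fold changes of 0.63 ± 0.06 (limma adjusted p = 9.53e-09) and -0.32 ± 0.06 (adjusted p = 0.000203). It was also lower at d1 (-0.21, adjusted p = 0.00704) and d10 (-0.28, adjusted p = 0.000555) and higher at d4 (0.29, adjusted p = 0.000352) and d7 (0.26, adjusted p = 0.00109). The calls at d4 and d7 were lost when every library was rescaled to the same total (0.09 and 0.07, adjusted p = 0.158 and 0.291), and that at d7 also with only d0 and d7 in the fit (adjusted p = 0.0523). Without the third d7 library the d7 value was 0.38 (adjusted p = 1.1e-11).

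EPHB3, a receptor with a known role in positioning epithelial cells in the intestinal crypt, followed a course like that of EPHB4 with wider swings. Its levels were 638, 649 and 551 in untreated cells, 898, 916 and 795 at d4, and 301, 326 and 333 at d10. No d10 library overlapped the untreated range, and the fall was to 0.522 of the d0 level (-0.93 ± 0.09 on the log2 scale, limma adjusted p = 1.92e-08). At d15 it was back at 764, 772 and 739, above d0 (0.31 ± 0.09, adjusted p = 0.00554), and at d20 it was at 374, 393 and 356, below d0 (-0.71 ± 0.09, adjusted p = 1.32e-06). The higher calls at d7 (0.36, adjusted p = 0.002) and d15 were lost with libraries rescaled to the same total (0.17 and 0.15, adjusted p = 0.103 and 0.145), and that at d7 also with only d0 and d7 in the fit (adjusted p = 0.0519). Without the third d7 library the d7 value was 0.52 (adjusted p = 1.41e-08). At d1 EPHB3 had a value of -0.06 (adjusted p = 0.589), called lower with that rescaling (-0.26, adjusted p = 0.0199).

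Of the EphA receptors, EPHA1, the founding member of the family, declined through the course. It had 1161, 1159 and 1206 normalised reads in untreated cells and 604, 608 and 648 at d20, a level of 0.528 of d0 (log2 fold change -0.92 ± 0.07, limma adjusted p = 7.15e-11). No library overlapped between d0 and d20. From d4 each step down passed the test: -0.35 to d7 (adjusted p = 0.000159), -0.25 to d10 (adjusted p = 0.00203), -0.26 to d15 (adjusted p = 0.00124) and -0.23 to d20 (adjusted p = 0.00337). Without the third d7 library the step from d7 to d10 was -0.17 (adjusted p = 0.00728). Its d1 and d4 levels, the highest, overlapped each other. The small difference of d4 from d0 (0.17, adjusted p = 0.0288) changed sign with libraries rescaled to the same total (-0.03, adjusted p = 0.684) and was not called with quantile normalisation (0.09, adjusted p = 0.194), with edgeR (0.13, adjusted p = 0.0627) or without the first d0, the second d0 or the third d4 library (adjusted p = 0.0718, 0.0731 and 0.122). The difference of d7 from d0 (-0.18, adjusted p = 0.0174) was not called with only those 2 groups in the fit (adjusted p = 0.0745) or without the third d0, the first d7 or the second d7 library (adjusted p = 0.0601, 0.11 and 0.0598), and was -0.26 (adjusted p = 8.8e-05) without the third d7 library.

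EPHA2, the main EphA receptor of mammary epithelial cells and a receptor for EFNA1, swung between timepoints. Its untreated libraries were spread, at 1770, 1534 and 2405 normalised reads. It had 3252, 3153 and 3316 at d10, 1247, 1260 and 1230 at d15, and 3312, 2805 and 2654 at d20. The d10 and d20 libraries all lay above the untreated range and the d15 libraries all lay below it. The log2 fold changes were 0.79 ± 0.14 at d10 (limma adjusted p = 3.49e-05), -0.59 ± 0.14 at d15 (adjusted p = 0.000696) and 0.64 ± 0.14 at d20 (adjusted p = 0.000436). It was higher at d1 too (0.48 ± 0.14, adjusted p = 0.00542), a call lost with libraries rescaled to the same total (0.29, adjusted p = 0.0667) or without the second d0 library (0.34, adjusted p = 0.0524). At d4 it had a value of -0.11 (adjusted p = 0.476), called lower with that rescaling (-0.31, adjusted p = 0.0441). At d7 the third library had 1452, beside a mean of 2281 in the other 2, and the difference from d0 was called only without it (0.07, adjusted p = 0.68, and 0.28, adjusted p = 0.00372).

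Among the ephrin-A ligands, EFNA1, which is bound by EPHA2, rose and fell back. It had 581, 534 and 620 normalised reads in untreated cells, 1935, 2019 and 1742 at d4, and 521, 589 and 492 at d10. The d4 libraries were all above the untreated range (3.28-fold; log2 fold change 1.71 ± 0.08, limma adjusted p = 1.42e-14), while the d10 libraries overlapped it (-0.12 ± 0.08, adjusted p = 0.172). With libraries rescaled to the same total the d10 value was called lower (-0.34, adjusted p = 0.000313), as it was with quantile normalisation (-0.17, adjusted p = 0.0393) and without the second d10 library (-0.19, adjusted p = 0.039). At d15 EFNA1 was again at 1439, 1419 and 1534 (1.34 ± 0.08, adjusted p = 5.98e-13), and at d20 at 976, 883 and 975 (0.71 ± 0.08, adjusted p = 4.3e-08), so that d20 overlapped d1 in the order of its levels.

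EFNA5, an ephrin-A ligand known from axon guidance, was lower than d0 at d1 (-0.52 ± 0.10, limma adjusted p = 8.59e-05), d10 (-0.61 ± 0.10, adjusted p = 9.86e-06) and d20 (-0.46 ± 0.10, adjusted p = 0.000272). Its levels were 731, 589 and 672 in untreated cells, 454, 437 and 408 at d10, and 762, 794 and 746 at d15. The d10 libraries lay below the untreated range, and the 4 highest levels (d15, d7, d4 and d0) overlapped in sequence. At d7 the value was 0.05 (adjusted p = 0.692), and 0.19 and called (adjusted p = 0.0153) without the third d7 library. The higher call at d15 (0.21 ± 0.10, adjusted p = 0.0497) was lost with edgeR, DESeq2, no filter on low values or libraries rescaled to the same total, with adjusted p from 0.0526 to 0.604, and in 5 of the 6 fits that left out a d0 or d15 library.

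Of the ephrin-B ligands, EFNB1 and EFNB2 had means above that of untreated cells at every treated timepoint. EFNB2, the ligand of EPHB4, had 724, 694 and 740 normalised reads at d0, 1785, 1800 and 1805 at d1, and 1906, 1871 and 1877 at d10. At d15, its lowest treated level, it had 1335, 1293 and 1315. Every treated library exceeded every untreated one, with log2 fold changes from 0.87 ± 0.04 at d15 (limma adjusted p = 1.78e-14) to 1.39 ± 0.04 at d10 (adjusted p = 9.68e-18). It rose 2.50-fold by d1 (1.32 ± 0.04, adjusted p = 2.68e-17) and stood at 1556, 1542 and 1538 at d20 (1.10 ± 0.04, adjusted p = 4.8e-16). EFNB2 was the member with the smallest standard error.

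EFNB1, an ephrin-B ligand encoded on the X chromosome, had the highest level per kb of the 4 ligands in untreated cells. It had 2376, 2388 and 2523 normalised reads in untreated cells and 3804, 3656 and 3925 at d1, with no overlap (1.56-fold; log2 fold change 0.64 ± 0.07, limma adjusted p = 1.86e-07). Its highest mean, at d7, rested on a spread of 5194, 4769 and 3724 (0.90 ± 0.07, adjusted p = 9.02e-10), and without the third library the value was 1.04 (adjusted p = 2.46e-24). At d20 it was at 3161, 3128 and 2928 (0.34 ± 0.07, adjusted p = 0.00046), a call lost with libraries rescaled to the same total (0.14, adjusted p = 0.0857) and with quantile normalisation (0.18, adjusted p = 0.0515).

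EPHB2 and EFNB2 had log2 timepoint means with a Pearson correlation of 0.96 over the 7 timepoints, d0 included. EPHB2 and EFNB2 were lowest at d0 (means 495.7 and 719.4), and their lowest treated means were 1367 at d4 and 1314 at d15. Their promoters and that of EPHA1 are printed because these are the 3 of the 10 genes whose 250 bases before the start hold the E-box CACCTG on either strand, the motif that the EMT transcription factors of the ZEB and SNAIL families bind. It is in 17.5% of the 27305 promoters of that length. The sequences are from RefSeq (GRCh38.p14), 5′ to 3′ on the strand of the gene, and the E-box is in capitals. The EPHA1 sequence lies at chr7:143408857-143409106 on the minus strand, that of EPHB2 at chr1:22710588-22710837 on the plus strand and that of EFNB2 at chr13:106535663-106535912 on the minus strand.
EPHA1: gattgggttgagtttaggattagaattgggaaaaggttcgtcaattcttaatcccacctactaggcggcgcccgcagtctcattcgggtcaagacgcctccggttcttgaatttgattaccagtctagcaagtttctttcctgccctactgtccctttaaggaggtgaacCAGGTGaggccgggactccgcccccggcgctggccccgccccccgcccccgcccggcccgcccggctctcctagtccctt
EPHB2: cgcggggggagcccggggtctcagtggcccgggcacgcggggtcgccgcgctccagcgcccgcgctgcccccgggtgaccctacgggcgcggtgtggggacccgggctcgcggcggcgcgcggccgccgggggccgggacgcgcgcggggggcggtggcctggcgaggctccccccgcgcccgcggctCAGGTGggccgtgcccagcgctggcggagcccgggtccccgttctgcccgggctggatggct
EFNB2: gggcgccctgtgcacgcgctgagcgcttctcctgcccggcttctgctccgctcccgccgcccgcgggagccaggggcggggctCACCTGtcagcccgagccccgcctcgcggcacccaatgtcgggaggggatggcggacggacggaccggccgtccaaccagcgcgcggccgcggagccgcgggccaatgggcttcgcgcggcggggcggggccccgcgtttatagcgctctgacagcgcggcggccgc
The E-box began 80, 62 and 167 bases before the start in EPHA1, EPHB2 and EFNB2. EPHA1 fell while EPHB2 and EFNB2 rose, so the 3 genes that carry these letters did not share a direction. The GC box GGGCGG was in all 10 promoters (42.3% of all promoters), the SMAD element CAGAC was in those of EPHA4, EPHB3 and EFNA1 (37.8% of all promoters), the longer CAGA box, which was searched first, was in 0 of 10 (0.256%), and the AP-1 motif TGANTCA was in 0 of 10 (6.6% of all promoters), each searched on both strands. A match is a description of letters only, since binding was not measured.

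Between consecutive treated timepoints, the direction differed among the genes. From d1 to d4, 4 genes were higher (32.9% of all genes tested) and 4 lower (32%). From d4 to d7, 1 was higher and 2 were lower (25.5% of all genes in each direction). Without the third d7 library 5 were higher, for which the share of all genes was not taken. From d7 to d10, 3 were higher (36.2%) and 6 lower (35.2%). From d10 to d15, 4 were higher (39.3%) and 4 lower (40.5%), and from d15 to d20, 2 were higher (37.7%) and 6 lower (36.3%).

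A pattern of alternating steps was noticed after the values had been seen. EPHB3, EPHB4, EFNA1 and EFNA5 rose from d1 to d4, fell from d7 to d10, rose from d10 to d15 and fell from d15 to d20, each step past the test (4 of 9 genes, against 18.7% of all genes tested). EPHA2 and EFNB2 took the opposite course in all 4 steps (2 of 9, against 20.8% of all genes). The largest single steps were those of EFNA1 (-1.47 ± 0.08 from d7 to d10, limma adjusted p = 1.66e-12, and 1.46 ± 0.08 from d10 to d15, adjusted p = 1.7e-13) and EPHA2 (-1.38 ± 0.14 from d10 to d15, adjusted p = 9.47e-09). Without the third d7 library the d7 to d10 step was -1.42 for EFNA1, -1.45 for EPHB3, -0.66 for EPHB4, -0.81 for EFNA5, 0.51 for EPHA2 and 0.14 for EFNB2. Over the timepoint means EPHA2 had a correlation of -0.96 with EPHB4 and -0.95 with EFNA5, and EPHB4 had one of 0.92 with EFNA5 (7 timepoints, which share their libraries between genes).

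Genes outside the family were also read over these timepoints. MKI67, a proliferation marker, had means of 10671, 9645, 7346, 8631, 11288, 3291 and 12122 over the 7 timepoints in order. In the third d7 library it was at 11850, against 7210 and 6834 in the others. CCNB1, also expressed by dividing cells, had means of 8007, 6345, 4307, 4964, 7053, 2222 and 8007 in the same order. TOP2A, another such gene, had means of 16926, 10840, 10728, 15354, 12342, 7282 and 17019, so its mean was lower at d10 than at d7, where those of MKI67 and CCNB1 were higher. CDH1, which encodes E-cadherin, had means of 7195, 6716, 5628, 7254, 3720, 6337 and 2868 over the same timepoints. The remaining epithelial markers did not share one course. KRT8 had means of 7955, 5510, 6517, 8029, 4988, 11259 and 7818, and its steps from d7 to d20 had the directions of those of CDH1. KRT18 had means of 7357, 7420, 5296, 3293, 7212, 4360 and 4872, and EPCAM of 2106, 1070, 565, 297, 454, 392 and 402. Both had the opposite directions from d7 to d20. KDR, an endothelial marker, had means of 42.1, 5.41, 65.8, 156.6, 2.94, 263.1 and 13.5, which were higher at d4 than at d1, lower at d10 than at d7, higher at d15 and lower at d20, as those of EPHB3, EPHB4, EFNA1 and EFNA5 were. PECAM1, the other endothelial marker that reached a mean of 10, had means of 41.3, 13.6, 10.5, 10.8, 14.7, 9.06 and 12.2. Its means moved the opposite way to those of KDR in each of these steps, at low levels. VWF had means of at most 8.74 and CDH5 of at most 0.353. The d7 libraries, with the third last, were at 3970, 3917 and 7006 for CCNB1 and 14882, 15160 and 16020 for TOP2A. They were at 7923, 7599 and 6240 for CDH1 and at 229.0, 197.0 and 43.7 for KDR. The part of proliferation, epithelial state or other cell types in the steps of the Eph and ephrin genes was not tested.

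The level of a ligand relative to its receptor was taken within each library. The ratio of EFNA1 to EPHA2 reads was 0.328, 0.348 and 0.258 at d0, 1.14, 1.13 and 1.03 at d4, 0.160, 0.187 and 0.148 at d10, and 1.15, 1.13 and 1.25 at d15. At d1 it was 0.345, 0.321 and 0.343, and at d7 0.626, 0.628 and 1.09, the last in the third d7 library. The d4 and d15 ratios were 3.52 and 3.78 times that of d0, and that of d10 was 0.53 times, with no overlap of libraries in any of the 3. At d20 the mean ratio was 0.326 ± 0.038 (SD, n = 3), near the 0.312 ± 0.048 of d0. The ratio of EFNB2 to EPHB4 was 0.232 ± 0.012 at d0, 0.670 ± 0.039 at d1, 0.737 ± 0.021 at d10, 0.272 ± 0.0032 at d15 and 0.619 ± 0.0035 at d20. Ratios to EPHB2 went the other way, with means below that of d0 on every treated day. That of EFNB2 to EPHB2 was 1.45 ± 0.059 at d0, 0.768 ± 0.020 at d1 and 0.896 ± 0.039 at d20. That of EFNB1 to EPHB2 was 4.91 ± 0.30 at d0, 1.62 ± 0.065 at d1 and 1.78 ± 0.095 at d20. At d7 the low means rested largely on the third library. EFNB2 to EPHB2 was 1.41, 1.4 and 0.761 there, beside 1.39, 1.46 and 1.51 at d0, so the first and second d7 libraries lay within the d0 range. EFNB1 to EPHB2 was 4.27, 3.93 and 1.81 at d7, beside 4.56, 5.02 and 5.14 at d0. These ratios are not corrected for transcript length, so they are read across timepoints only, and they describe bulk RNA of a culture without a test.

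**Figure D4:**
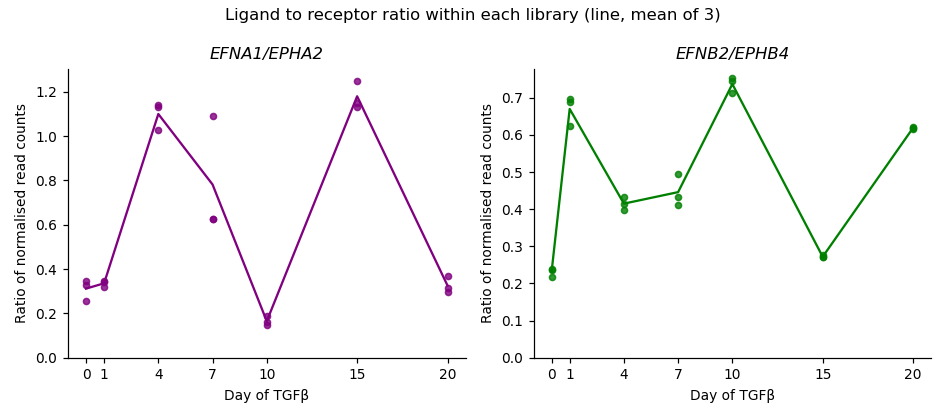
Ratio of normalised read counts of EFNA1 to EPHA2 (left) and of EFNB2 to EPHB4 (right) against the day of TGFβ, with 1 point per library, a line through the means of 3 and axes starting at 0. The first ratio peaked at d4 and d15 (1.1 and 1.18) and the second at d1 and d10 (0.670 and 0.737).

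Of the 12 remaining genes of the family, 5 were tested (EPHA3, EPHB6, EFNA3, EFNA4 and EFNB3), and EPHA5, EPHA6, EPHA7, EPHA8, EPHA10, EPHB1 and EFNA2 were under the filter, with means over the libraries of 0.0486 to 8.16. EPHB6, a family member that lacks kinase activity, fell most. It had 239, 238 and 256 normalised reads at d0 and 6.28, 5.13 and 5.95 at d1 (log2 fold change -5.18 ± 0.44, limma adjusted p = 1.62e-09). It returned in part to 72.4, 65.1 and 75.6 at d15 (-1.77 ± 0.44, adjusted p = 0.00104) and was at 6.36, 14.7 and 5.88 at d20 (-4.73 ± 0.44, adjusted p = 5.65e-09). EFNA3, an ephrin-A ligand, fell to 0.502 of its d0 level at d1 (-0.99 ± 0.14, adjusted p = 2.63e-06) and to 0.419 at d20 (-1.25 ± 0.14, adjusted p = 7.63e-08). All 5 were lower at d1 (28.5% of all genes), and at d20 (32.5% of all genes higher and 30.2% lower) EFNB3 was higher (0.66, adjusted p = 0.000754), EPHB6, EFNA3 and EFNA4 (-0.46, adjusted p = 0.00168) were lower, and EPHA3 had a value of -0.63 (adjusted p = 0.217). EFNA3 and EFNB3 showed the same 4 alternating steps as EPHB3, EPHB4, EFNA1 and EFNA5 (2 of 5, against 18.7% of all genes).

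Downstream of the receptors, a list of 16 genes held cytoplasmic tyrosine kinases and adaptors, with PIK3R1, a lipid kinase subunit, and INPPL1, a lipid phosphatase. All were tested, and 10 rose and 1 fell at d1 (31.3% and 28.5% of all genes). At d20, 9 rose and 5 fell (32.5% and 30.2%), with a median log2 fold change of 0.23. FYN, a Src family kinase, rose from 231 to 1016 (2.13 ± 0.06, adjusted p = 5.55e-18) and NCK2, an adaptor between tyrosine kinases and actin, from 819 to 3466 (2.08 ± 0.06, adjusted p = 2.13e-17).

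The 10 partners of ephrin-B tails were evenly divided, with 4 higher and 6 lower at d1 and 5 higher and 5 lower at d20 (median 0.00). GRIP1, a PDZ scaffold that binds the ephrin-B tail, fell from 288.0 to 72.3 at d20 (-1.98 ± 0.15, limma adjusted p = 2.24e-10), and PARD6B, a polarity protein, from 90.1 to 35.9 (-1.31 ± 0.30, adjusted p = 0.00073). Of the phosphatases, ubiquitin ligases and sheddases that limit Eph signals, 9 of 10 were tested, with 5 higher and 0 lower at d1 and 6 higher and 0 lower at d20 (median 0.15). MMP14, a membrane protease, rose from 5856 to 24284 (2.05 ± 0.03, adjusted p = 1.21e-22), and PTPRF, a receptor phosphatase, from 12834 to 23867 (0.90 ± 0.04, adjusted p = 1.23e-14). The counts of both lists stand beside 31.3% of all genes higher and 28.5% lower at d1, and 32.5% higher and 30.2% lower at d20, and the lists were not tested as sets.

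**Figure D5:**
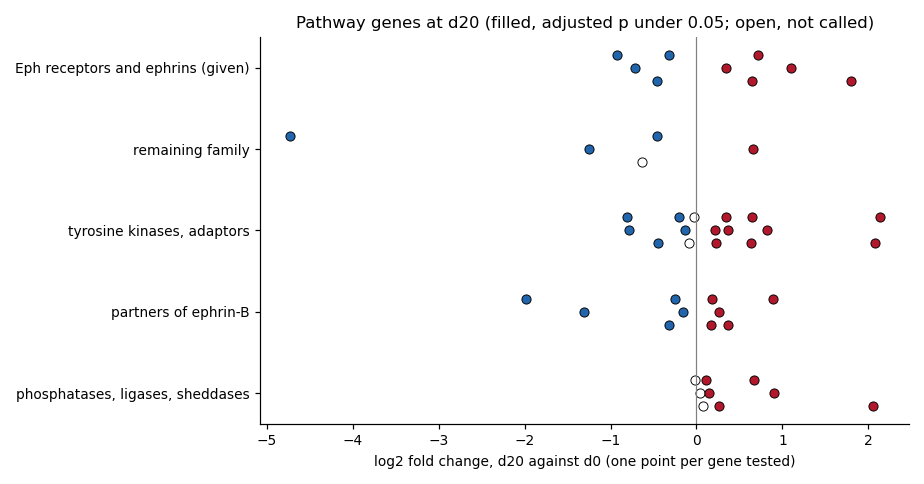
Log2 fold change at d20 against untreated cells for each tested gene of the given Eph and ephrin set, the remaining family and the 3 lists of signalling genes, with 1 point per gene, filled in red or blue where the limma adjusted p was under 0.05 and open where it was not. The values run from -4.73 for EPHB6 to 2.13 for FYN, and none of the 9 tested phosphatases, ligases and sheddases was called lower.

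The gene whose timepoint means were most like those of each member, by Pearson correlation of log2 values over the 7 timepoints, was RUNX1 for EFNB2 (0.997), KLHDC8B for EFNA5 (0.995), SPOCK2 for EPHB4 (0.994), MRPL41 for EPHA2 (0.993) and CD9 for EPHA1 (0.992). It was PIK3CD for EPHB2 and IL22RA1 for EPHB3 (both 0.989), DGAT1 for EFNA1 (0.987) and TBRG1 for EFNB1 (0.962). Each is the highest of 13343 genes compared over 7 points, so a high value is a description of shape and carries no test.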

How the data were processed

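Bulk RNA-seq was performed in 21 HMLE libraries, 3 per timepoint, described as biological triplicates by the study. The authors deposited a table of normalised read counts (a signal, the reads of each library scaled by its size factor and rounded to 2 decimals), and whole reads could be recovered for every value within 0.1 read. The submitters' processing notes name STAR 2.7, Salmon 1.4 and hg19, and give no role or order. Column names give the timepoint but no replicate number, so libraries are numbered in column order. Values were log2 transformed after adding 1, and limma 3.58.1 (R 4.3.3, empirical Bayes with a trend) was fitted to all libraries with 1 mean per timepoint over the 13343 genes with a mean of at least 10. P-values were adjusted by Benjamini-Hochberg within each of 11 comparisons (each treated day against d0, and consecutive treated days). The code was tested on simulated data. Alternatives were a pseudocount of 10, no filter, rescaling to the same total, quantile normalisation, only the compared groups, each library left out, and edgeR 4.0.16 and DESeq2 1.42.0 on the recovered reads. Transcript lengths are from GENCODE 29 and promoters from RefSeq. Genes named outside the set were all tested remaining family members and, in each signalling list, the 2 largest called changes at d20. One list of signalling genes is not reported here. Members and lists were chosen with earlier results of these data known. MKI67, TOP2A and CCNB1 were examined after the data had been seen, and CDH1, KRT8, KRT18 and EPCAM are the epithelial markers.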

Additional observations from a re-analysis of the deposited data

Results flagged for a closer look

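For 5 genes the change against untreated cells was called in opposite directions at different timepoints. The log2 difference between each gene's highest and lowest called timepoint is given as a value with its limma standard error and without a p, since both the genes and the timepoints were picked for lying on opposite sides of d0. EPHA1 was 1.09 ± 0.07 higher at d4 than at d20, and EPHA2 was 1.38 ± 0.14 higher at d10 than at d15. EPHB3 was 1.44 ± 0.09 higher at d4 than at d10, and EPHB4 was 0.95 ± 0.06 higher at d15 than at d20. EFNA5 was 0.83 ± 0.10 higher at d15 than at d10. The higher call of EPHA1 at d4 and that of EFNA5 at d15 were not kept by every alternative. Groups of 3 libraries are too small for a check of single outlying values.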

How the results depend on the processing

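The 54 fold changes against d0 were recomputed in 702 alternative fits and the 22 counts in 286. For the counts in these alternatives the share of all genes called was not taken. Of 378 fold changes with all libraries, 350 kept their direction and side of the threshold, 16 lost and 5 gained a call, and 7 changed sign. With 1 library left out, 303 of 324 were kept, 12 lost and 3 gained a call, and 6 changed sign. Rescaling to the same total moved the median of all genes by -0.20 to -0.14 against d0. It gave 1 gene lower at d4 in place of 0, and changed the sign of EPHA1 at d1 (-0.05) and d4 (-0.03), EPHA2 at d7 (-0.12) and EFNA5 at d4 (-0.18) and d7 (-0.15). EFNA5 at d4 also changed sign with quantile normalisation (-0.04) and edgeR (-0.02). With only the compared groups, 0 genes were lower at d7 in place of 1. Leaving out single libraries gave 0 to 1 genes lower at d7 than at d0 (0 without the third d0, first d7 or second d7 library) and 1 to 5 higher at d7 than at d4 (5 without the third d7 library). It gave EPHA2 from -0.26 (without the second d0 library) to 0.07 (without the third) at d4, and from -0.08 (without the first d7 library; -0.07 without the second d0 library) to 0.28 (without the third d7 library) at d7, with EFNA5 from -0.06 (without the second d0 library) to 0.09 (without the first) at d4 and from -0.07 (without the first d7 library; -0.04 without the second d0 library) to 0.19 (without the third d7 library) at d7. The cause was not tested. None of the values that changed sign was called in that alternative. No paired analysis was possible because the column names carry no replicate numbers. EPHA4, at 11 reads or fewer, is limited by depth.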
